A study of Mus musculus with 4 samples.

Results

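Glutamate receptors and the scaffold proteins that hold them at the synapse were read in the cerebellum of mice with and without Derlin-2. The set holds 38 genes out of 22911 named on the array. They are 4 AMPA, 5 kainate and 6 NMDA receptor subunits, the delta receptor subunit Grid1 and the scaffold gene Grid2ip, 6 metabotropic receptors, 6 transmembrane AMPA receptor regulatory proteins (TARPs), 4 membrane-associated guanylate kinases (MAGUKs) and 5 Homer and Shank scaffolds. A probe was taken as a member's when the RefSeq accession in its annotation belonged to that gene, which gave 68 of 56605 probes and at least 1 for every gene. RNA came from the cerebellum of C57BL/6 mice at postnatal day 28, 2 controls and 2 knockouts (KO), on 4 one-colour arrays. The controls carried 2 floxed alleles of Derl2 (Derlin-2 flox/flox). KO samples came from crosses of floxed mice to a nestin-Cre line, meant to delete the gene throughout the central nervous system. Nestin marks the precursors of neurons, astrocytes and oligodendrocytes, and microglia, blood and vessel cells have another origin. The labels do not say whether the controls carried Cre, or how many animals gave each sample, and p-values measure the spread between these samples only.

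Glutamate is the main excitatory transmitter of the cerebellum. AMPA, kainate and NMDA receptors are ion channels built from several subunits, and metabotropic receptors signal through G proteins. TARPs carry AMPA receptors to the synapse and slow their closing, and MAGUK, Shank and Homer proteins tie the receptors to each other and to the cytoskeleton. Receptor subunits are folded and assembled in the endoplasmic reticulum (ER), where Derlin-2 takes part in removing misfolded proteins. Granule cells and Purkinje cells carry most of the receptors read here, and Bergmann glia carry AMPA receptors of their own.

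Derl2 was lower in KO on its brighter probe, at a log2 signal of 2.13 and 2.20 in the controls and 0.81 and 0.70 in KO, a difference of −1.41 (SE 0.11; limma adjusted p 0.273), in the direction the group labels state; where the probe lies relative to the deleted part of the gene was not analysed here. Between 66.4% and 69.4% of 59305 spots per array were well above background, none was saturated, and all signals are given as log2 of the processed intensity minus the 75th percentile of the array. The 4 defining cerebellar markers Gabra6, Pcp2, Cbln1 and Zic1 were well above background on all 4 arrays, at a mean log2 signal of 6.83 and 6.85 in the controls and 6.76 and 6.77 in KO. Control replicate 2 stood apart in 2 lists. Its 4 choroid plexus markers averaged 3.23, against −1.82 in control replicate 1 and −1.64 and −2.57 in KO, and the 2 red blood cell genes kept averaged 4.52, against 3.79 to 3.93 on the other arrays. Control replicate 1 held 1350 spots on a patch of raised local background, and 0 spots of a member lay on a patch. In bulk tissue, fewer cells of a type and less RNA per cell cannot be told apart. The plot of marker lists by array shows these values.

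**Figure D1:**
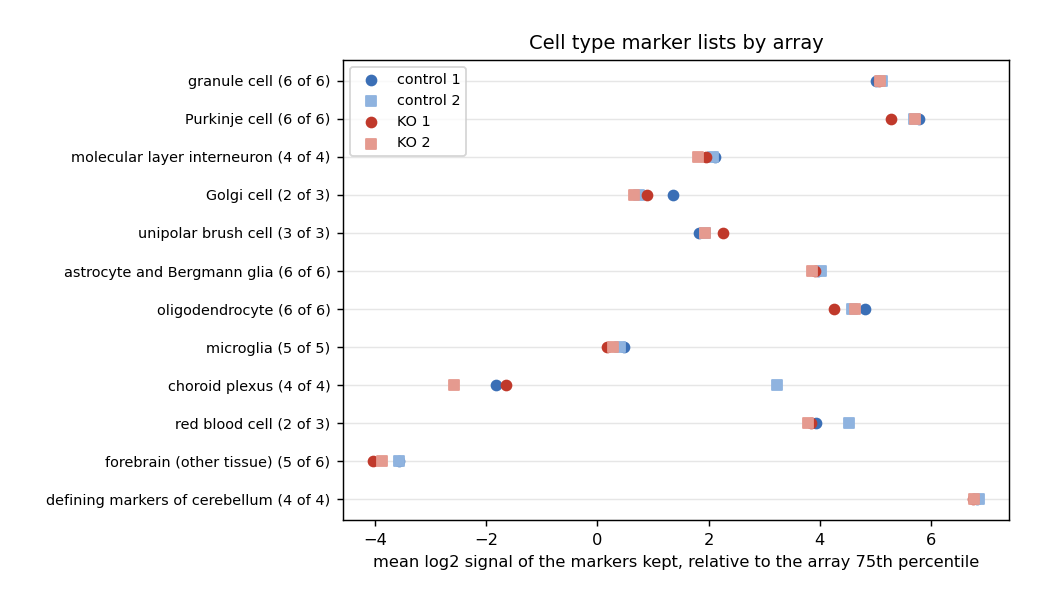
Mean log2 signal of the markers of each cell type, relative to the array's 75th percentile (x axis), with 1 point per array and the number of markers kept in brackets. The choroid plexus list sits at 3.23 on the array of control replicate 2 and between −2.57 and −1.64 on the other arrays.

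All 38 genes were detected in this tissue. The filter asked that a probe be well above background throughout 1 group or the other, and 67 of the 68 member probes passed, each of them well above background on all 4 arrays. The exception was the dimmest of the 3 Grm5 probes, which was not well above background on any array. Subunits known mainly from the forebrain or from early development were among those detected: the control signal of Grin2b was −2.53 ± 0.126 (SD, n = 2) and that of Cacng3 −2.71 ± 0.016 (SD, n = 2), both in log2. Probes of different genes bind with different strength, so their signals are not on 1 scale and no order of subunits by abundance can be read from them. Each gene is described by its brightest probe, against itself. Even the 3 probes of a single gene, Grik2, averaged −1.18, −2.18 and −3.16 in control.

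The comparison of KO with control asked which receptor and scaffold transcripts shift with the loss of Derlin-2. After Benjamini-Hochberg adjustment over 37516 probes in limma, 0 of the 38 members passed 0.05, as did 0% of all 16524 genes read by their brightest probe; the smallest adjusted p among members was 0.299. At an unadjusted p under 0.05, 4 members (10.5%) stood out, against 8.81% of all genes, so the share of members lay near the background. They were Grik2, higher in KO, and Grik1, Grik4 and Grm3, lower in KO. For 17 members, 44.7% of them, the 2 KO arrays lay both above or both below the 2 controls, against 45.9% of all genes. Of these 17, 4 were higher, against a background of 13.8%, and 13 were lower, against 32.1%. The median difference was −0.068 over members and −0.064 over all genes. Of the 38 members 29 (76.3%) were below 0, against 63.9% of all genes. Counted over probes, 8 of 67 were at an unadjusted p under 0.05, 4 higher and 4 lower, against 14% of all kept probes (8.84% higher, 5.2% lower). Groups did not overlap for 28 of the 67, 10 higher and 18 lower, against 49.3% of all (22.5% higher, 26.9% lower). With the arrays scaled to spike-in RNA instead, the median difference was 0.019 over members and 0.023 over all genes. Of the 4 members then at an unadjusted p under 0.05, 3 were higher and 1 lower. Of the non-overlapping members 7 were higher and 6 lower. Shares of all genes at this scaling are not given here, so these counts cannot be set against a background. The number at an unadjusted p under 0.05 fell to 0 without control replicate 1, to 2 without control replicate 2 or without KO replicate 1, and to 1 without KO replicate 2. Without control replicate 2, the array with choroid plexus signal, the difference was 0.74 for Grik2, −0.40 for Grik4 and −0.32 for Grik1. It was −0.54 for Grm3, 0.25 for Gria2, 0.43 for Homer2 and −0.18 for Cacng2. The groups of these genes do not overlap, so leaving out an array could change the sizes but not the directions.

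**Figure D2:**
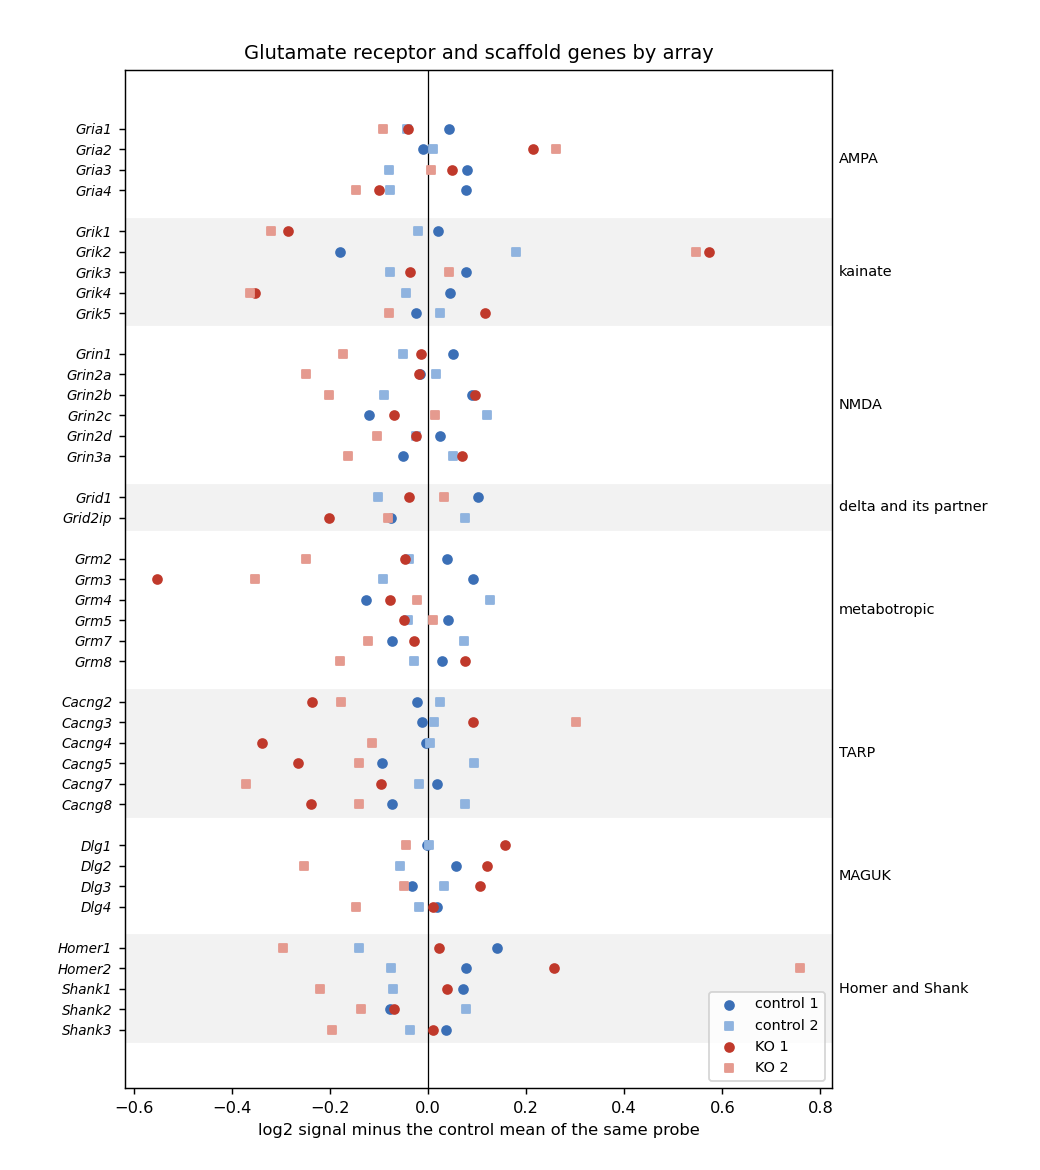
Log2 signal of each member on each of the 4 arrays, minus the mean of the 2 controls for the same probe (x axis), by receptor or scaffold class. The KO points of Grik1, Grik4 and Grm3 lie left of both control points, those of Grik2, Gria2 and Homer2 lie right of both, and most other genes have KO and control points among each other.

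The 2 arrays of a group differed from each other by a median of 0.103 across members in control and 0.140 in KO. KO replicate 2 read lower than KO replicate 1 for most members: against the 2 controls, 6 and 8 of the 38 members were higher in KO replicate 2, and 15 and 20 were higher in KO replicate 1. With 2 arrays a group, the 95% interval of a member's difference was between 0.528 and 1.09 wide on the log2 scale. For 32 of the 38 members that interval lay inside a 1.5-fold change in either direction, and for 37 inside a 2-fold change. The exception at 2-fold was Homer2. A 2-fold change thus lay outside the interval of every member but Homer2, while 4 arrays leave differences as small as most of those here within the spread.

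**Figure D3:**
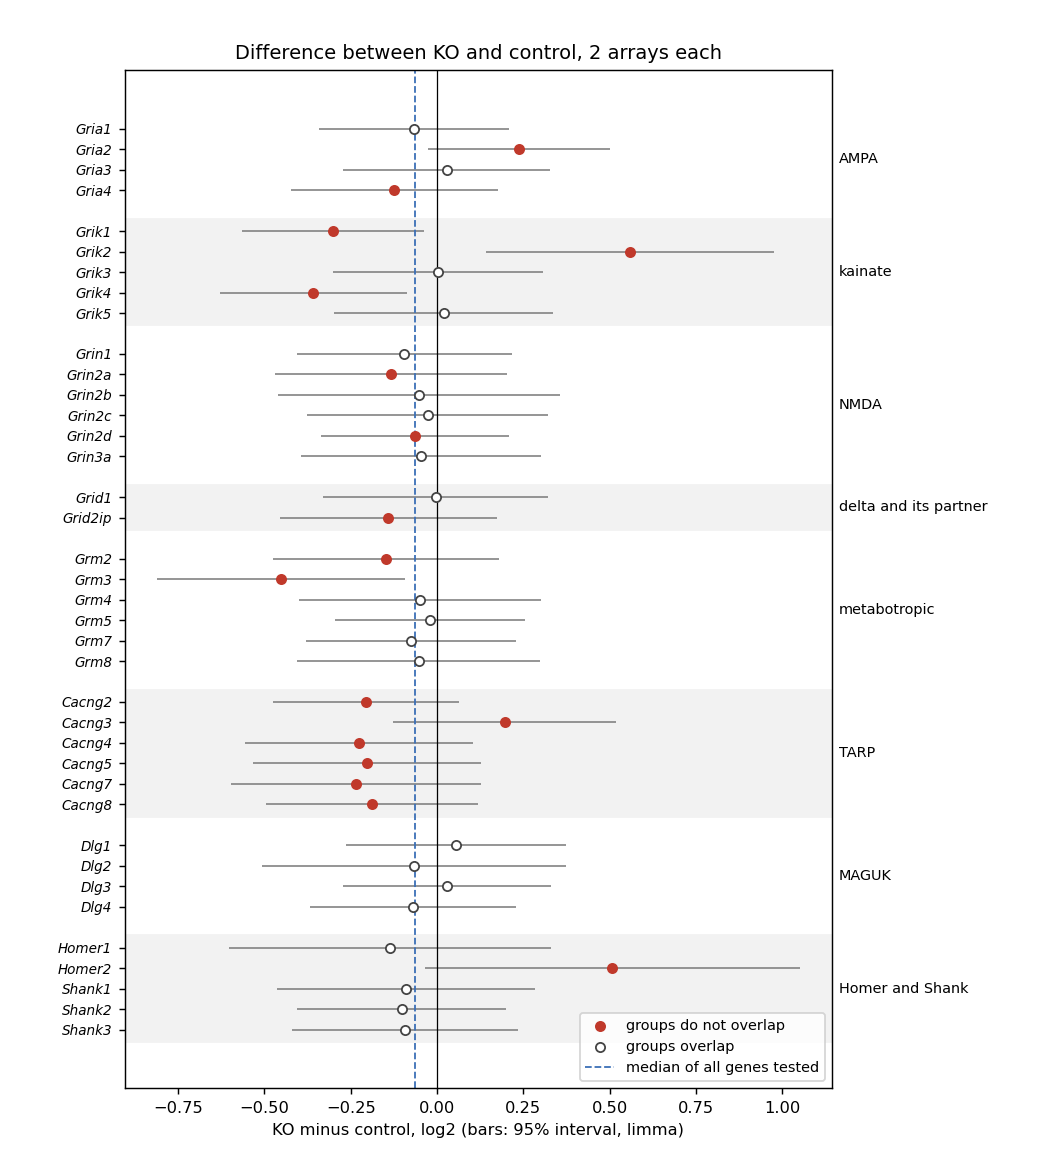
Difference between KO and control for each member (x axis, log2), with the limma 95% interval as a bar; filled points mark members whose KO and control arrays do not overlap, and the dashed line is the median of all genes tested, −0.064. The intervals of Grik1, Grik2, Grik4 and Grm3 exclude 0, and 32 of 38 intervals stay within a 1.5-fold change.

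**Figure D4:**
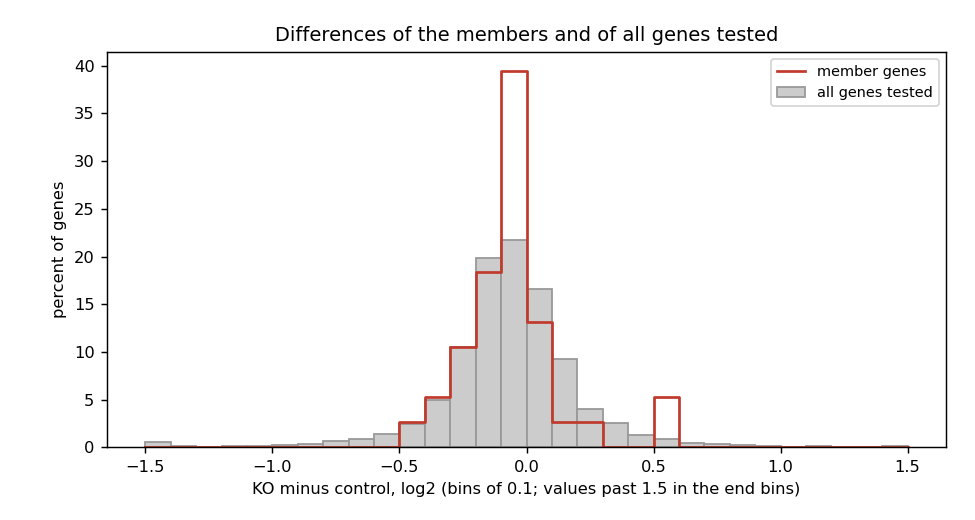
Share of genes (y axis, percent) by difference between KO and control (x axis, log2, bins of 0.1) for all 16524 genes (grey) and the 38 members (red line). The members' median of −0.068 lies beside that of all genes, −0.064, and no member lies beyond 0.56 in either direction.

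Kainate receptors held 3 of the 4 members at an unadjusted p under 0.05, and these did not move one way. GluK2, the product of Grik2, forms channels by itself and is a kainate receptor subunit of granule cells. Grik2 had a log2 signal of −1.36 and −0.999 in the controls and −0.61 and −0.63 in KO, so both KO arrays were above both controls and close to each other. The difference was 0.56 (SE 0.155; 95% interval 0.142 to 0.977; limma adjusted p 0.299), a KO signal of 147% of control. The other 2 Grik2 probes were higher in KO as well. They differed by 0.59 (SE 0.13) and 0.37 (SE 0.19), again with no overlap between the groups.

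Transcripts of Grik1 and Grik4 went the other way. Grik4 encodes a high-affinity subunit that reaches the surface only together with a GluK1, GluK2 or GluK3 partner. Its single probe read 1.86 and 1.77 in the controls and 1.46 and 1.45 in KO, a difference of −0.36 (SE 0.101; 95% interval −0.630 to −0.086; limma adjusted p 0.301), so that KO stood at 78.0% of control. Grik1, which encodes a subunit able to form channels alone, read 0.70 and 0.66 in the controls and 0.39 and 0.36 in KO. The Grik1 difference was −0.30 (SE 0.098; limma adjusted p 0.328), or 81.1% of control, and the replicates of each group were within 0.04 of each other. The other 2 Grik1 probes were lower by −0.35 (SE 0.13) and −0.18 (SE 0.11), both with groups apart. For Grik1, Grik2 and Grik4 the direction held under all 16 alternative settings of the processing. Several of these, such as leaving an array out, could not reverse groups that do not overlap.

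The ratio of 2 genes on the same array is free of a constant scaling factor between arrays. Since Grik2 was higher and Grik4 and Grik1 lower without overlap, KO ratios above those of the controls had to follow. The ratios are thus no support beyond the single genes. Set to a control mean of 0, the log2 ratio of Grik2 to Grik4 gave −0.223 and 0.223 in control, against 0.925 and 0.909 in KO. For Grik2 to Grik1 the control arrays gave −0.199 and 0.199 and the KO arrays 0.857 and 0.866. Centring on their mean puts 2 controls on either side of 0 at equal distance. The gap between the controls came mostly through Grik2, while the KO arrays were nearly equal. These ratios were singled out after their values were seen, and exact permutation of 4 arrays reaches a two-sided share of 33.3% at the lowest. For the other 2 subunits the arrays overlapped on the brightest probe. Grik3, which also forms channels by itself, read 1.52 and 1.37 in control and 1.41 and 1.49 in KO, and Grik5, the second high-affinity subunit, 1.68 and 1.73 in control and 1.82 and 1.63 in KO. The 95% intervals were −0.302 to 0.307 for Grik3 and −0.299 to 0.337 for Grik5. A second, dimmer Grik5 probe was lower in KO by −0.16 (SE 0.11), with the groups apart.

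**Figure D5:**
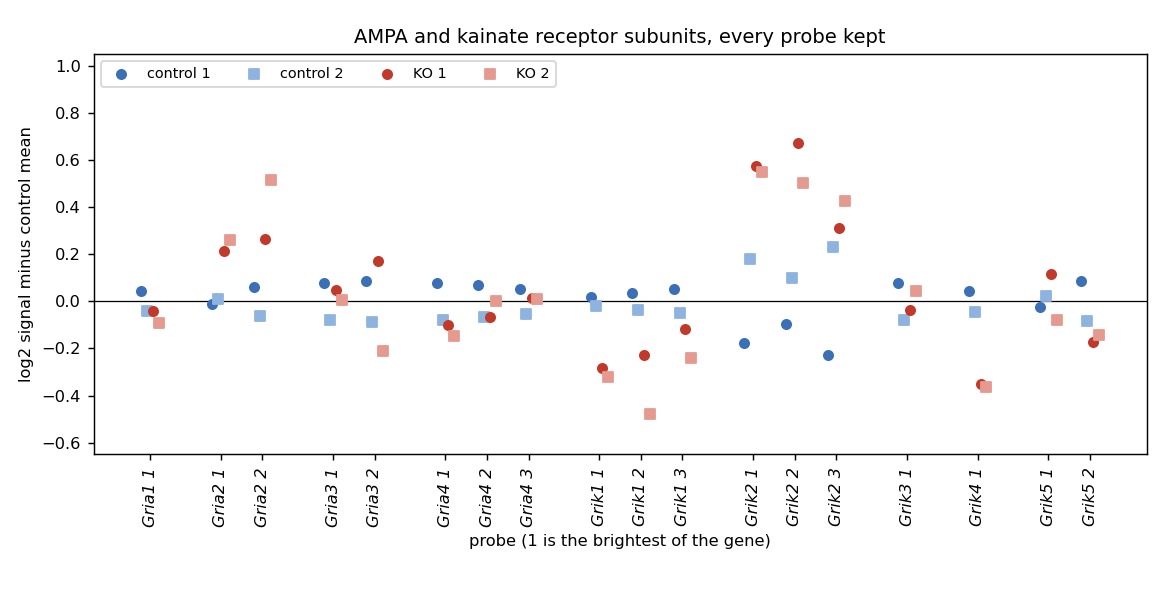
Every kept probe of the AMPA and kainate receptor subunits (x axis, 1 being the brightest of each gene), as log2 signal minus the control mean (y axis), with 1 point per array. All 3 Grik2 probes and both Gria2 probes have their KO points above the controls, and all 3 Grik1 probes and the Grik4 probe have them below.

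The promoters of Grik2 and Grik4, the 2 kainate receptor genes that lay furthest apart, and of Gria2, the AMPA receptor gene with both probes higher in KO, are shown because ER stress is known to act on transcription through promoter elements. Each stretch is the 250 bases before the annotated start, from RefSeq on GRCm38.p6, in lower case because no searched motif was found in it.
Grik2, chr10:49788755-49789004, minus strand: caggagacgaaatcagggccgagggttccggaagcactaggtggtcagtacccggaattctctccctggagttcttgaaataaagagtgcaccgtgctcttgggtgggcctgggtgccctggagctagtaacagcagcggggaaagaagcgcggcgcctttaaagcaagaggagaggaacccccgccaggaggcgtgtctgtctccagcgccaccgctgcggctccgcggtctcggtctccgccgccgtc
Grik4, chr9:42944372-42944621, minus strand: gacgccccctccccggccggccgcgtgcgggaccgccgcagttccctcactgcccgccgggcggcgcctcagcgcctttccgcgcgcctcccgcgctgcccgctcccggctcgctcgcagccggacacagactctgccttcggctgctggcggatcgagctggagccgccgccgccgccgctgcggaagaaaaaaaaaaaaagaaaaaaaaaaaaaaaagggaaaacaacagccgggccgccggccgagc
Gria2, chr3:80802836-80803085, minus strand: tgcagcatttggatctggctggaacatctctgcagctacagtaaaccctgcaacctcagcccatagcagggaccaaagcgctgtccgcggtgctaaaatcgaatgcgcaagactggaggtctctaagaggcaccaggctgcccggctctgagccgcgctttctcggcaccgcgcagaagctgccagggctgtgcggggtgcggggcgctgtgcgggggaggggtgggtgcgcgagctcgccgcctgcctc
The search covered 3 motifs on both strands, the last 2 of which begin with the same letters: the ER stress response element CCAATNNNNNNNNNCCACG, the unfolded protein response element TGACGTGG and the cyclic AMP response element TGACGTCA. They occur in 0.113%, 0.563% and 1.55% of 32851 promoter stretches of the same length. RefSeq entries were matched for 26 of the 38 members, with 41 stretches in all, and 0 of these held any of the 3 motifs. That says only that these letters are not in these windows.

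Among the AMPA receptor subunits, Gria2 was the one whose KO arrays both lay above the controls. GluA2, its product, makes the channel impermeable to calcium after RNA editing. Gria2 read 4.31 and 4.33 in the controls and 4.53 and 4.58 in KO. The groups did not overlap, and the difference was 0.24 (SE 0.098; 95% interval −0.027 to 0.501; limma adjusted p 0.385), 118% of control. Its second probe, listed for another transcript of the gene, differed by 0.39 (SE 0.14), again with both KO arrays above both controls. Gria2 kept its direction in all 16 alternatives, from 0.18 to 0.32, several of which could not reverse groups that do not overlap.

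The other AMPA subunits were closer to 0 or slightly lower. Gria1, the subunit of Bergmann glia and some neurons, read 5.46 and 5.37 in control and 5.37 and 5.32 in KO, a difference of −0.067 (95% interval −0.341 to 0.208). Gria4, shared by granule cells and Bergmann glia, read 4.87 and 4.72 in control and 4.69 and 4.65 in KO on its brightest probe, which was lower by −0.12 (SE 0.11), while its other 2 probes differed by −0.03 and 0.01. Gria3, found in Purkinje cells among others, differed by 0.028 and −0.019 on its 2 probes. Relative to Gria4 on the same array and set to a control mean of 0, Gria2 stood at −0.089 and 0.089 in the controls and at 0.314 and 0.407 in KO. Relative to Gria1 it stood at −0.053 and 0.053 in control and at 0.255 and 0.352 in KO. In both ratios the KO arrays lay above the controls. For Gria4 this had to follow, since Gria2 was higher and Gria4 lower without overlap on these probes. For Gria1 it nearly had to, since only control replicate 2 and KO replicate 1, both at 5.37, kept its groups from being apart. The ratios are thus no support beyond the single genes. The 6 markers of astrocytes and Bergmann glia averaged 3.96 and 4.02 in control and 3.91 and 3.86 in KO. Of these 6, 3 were lower without overlap, against 32.1% of all genes. Their part in the Gria2 ratios was not tested.

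No NMDA receptor subunit had an unadjusted p under 0.05. All 6 differences were below 0, between −0.133 and −0.027, and 2 of the 6, Grin2a and Grin2d, had groups that did not overlap. Over all genes 63.9% were below 0 and 45.9% did not overlap, and the median of −0.059 over these subunits lay beside −0.064 for all genes. Grin1, which encodes the subunit present in every NMDA receptor, read 2.17 and 2.06 in control and 2.10 and 1.94 in KO, a difference of −0.094 (95% interval −0.406 to 0.217). Its 2 probes disagreed in sign, with the dimmer one at 0.17. Grin2c encodes the subunit that granule cells take up as they mature, and it read 5.03 and 5.27 in control and 5.08 and 5.16 in KO. The Grin2c arrays of the groups lay among each other, and the interval of the difference ran from −0.376 to 0.321.

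Transcripts of the subunits that accompany or precede GluN2C also differed by little. Grin2a, the other mature partner of GluN1, had the smallest p of the class, with 0.30 and 0.33 in control and 0.29 and 0.06 in KO. The difference of −0.13 (SE 0.124; limma adjusted p 0.646) rested on KO replicate 2, since KO replicate 1 lay just below the lower control. Grin2b, the partner that prevails in immature granule cells, read −2.44 and −2.62 in control and −2.43 and −2.73 in KO. Grin2d, of interneurons and early life, read 0.93 and 0.88 in control and 0.88 and 0.80 in KO. Grin3a, which lowers calcium entry in juvenile receptors, read 1.45 and 1.55 in control and 1.57 and 1.34 in KO. The log2 ratio of Grin2c to Grin2b, a pair that changes places during maturation, differed by 0.026 between the groups, and its arrays overlapped.

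The delta receptor subunit Grid1 read −3.40 and −3.60 in control and −3.54 and −3.47 in KO, a difference of −0.0037 (95% interval −0.330 to 0.323). Grid2ip encodes delphilin, a scaffold protein of Purkinje cell synapses. Its brighter probe read 0.43 and 0.58 in control and 0.31 and 0.43 in KO, and the difference was −0.14 (SE 0.117; limma adjusted p 0.605). The second Grid2ip probe was lower by −0.30 (SE 0.15), so both probes had KO below control, by little on the brighter one.

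Of the metabotropic receptors, Grm3 had the lowest p and the widest difference. Grm3 encodes a receptor that inhibits adenylyl cyclase and is found on glia as well as neurons. It read −0.18 and −0.36 in the controls and −0.82 and −0.62 in KO, with no overlap. The difference was −0.45 (SE 0.133; 95% interval −0.811 to −0.094; limma adjusted p 0.307), a KO signal of 73.1% of control, and it stayed between −0.55 and −0.35 over the alternatives. Over those alternatives the adjusted p ran from 0.209 to 0.736. Of 6 oligodendrocyte markers, 4 were lower in KO without overlap, against 32.1% of all genes, and 1, Mag, had an unadjusted p under 0.05. Their mean was 4.82 and 4.58 in control and 4.25 and 4.62 in KO, so the array means of the groups overlapped. Microglial markers were lower without overlap for 4 of 5, against the same 32.1%, with means of 0.47 and 0.40 in control and 0.17 and 0.28 in KO. Markers of astrocytes and Bergmann glia were lower without overlap for 3 of 6, with means of 3.96 and 4.02 in control and 3.91 and 3.86 in KO. The part of these cell types in the Grm3 difference was not tested.

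The remaining metabotropic receptors differed by −0.148 to −0.019. Grm2, the receptor of Golgi and unipolar brush cells, read −0.73 and −0.81 in control and −0.82 and −1.02 in KO. Grm4, which restrains release from parallel fibres, read 1.30 and 1.55 in control and 1.35 and 1.40 in KO. Grm5, which raises calcium through phospholipase C, read −0.12 and −0.19 in control and −0.20 and −0.14 in KO. Among these only Grm2 had groups that did not overlap, and its nearest arrays were close. Grm7 and Grm8, presynaptic receptors of the same branch as Grm4, differed by −0.075 and −0.053, with intervals of −0.380 to 0.229 and −0.405 to 0.299.

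All 6 TARPs had groups that did not overlap, against 45.9% of all genes. For 5 of the 6 KO was lower, with differences of −0.234 to −0.189, against 32.1% of all genes lower without overlap, and for Cacng3 it was higher. The arrays of Cacng5 and Cacng8 overlapped with spike-in scaling, at −0.116 and −0.103, and those of Cacng8 also with quantile normalization, at −0.151. None had an unadjusted p under 0.05. Cacng2 encodes stargazin, without which granule cells lack surface AMPA receptors, and it read 3.74 and 3.79 in control and 3.53 and 3.59 in KO. The Cacng2 difference of −0.21 (SE 0.0999; 95% interval −0.475 to 0.062; limma adjusted p 0.431) left 86.7% of control. Cacng7, which encodes a TARP of the second type that also associates with AMPA receptors, read 0.007 and −0.028 in control and −0.107 and −0.382 in KO. Cacng5, of the same type, read 1.26 and 1.45 in control and 1.09 and 1.22 in KO.

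Cacng4 and Cacng8, TARPs of the same type as stargazin, were lower as well. Cacng4 read −3.05 and −3.04 in control and −3.39 and −3.16 in KO, and Cacng8 −2.90 and −2.75 in control and −3.06 and −2.96 in KO. Cacng3, best known from the cerebral cortex, read −2.72 and −2.70 in control and −2.62 and −2.41 in KO, a difference of 0.20 (SE 0.12). Each TARP was measured by 1 probe. All 6 kept their sign under all 16 alternatives, several of which could not reverse groups that do not overlap, but their size moved. Cacng2 ran from −0.24 to −0.12, Cacng4 from −0.34 to −0.086, Cacng5 from −0.30 to −0.11, Cacng7 from −0.37 to −0.097, Cacng8 from −0.26 to −0.10 and Cacng3 from 0.091 to 0.30. Single arrays set much of this: without KO replicate 2 Cacng7 was −0.097 and Cacng3 0.091, without KO replicate 1 Cacng4 was −0.11, and without control replicate 2 Cacng5 was −0.108 and Cacng8 −0.115. Markers of forebrain neurons, tissue outside the cerebellum, were lower in KO without overlap for 4 of 5 kept, against 32.1% of all genes, with a mean of −3.56 and −3.57 in control and −4.03 and −3.88 in KO. Markers of molecular layer interneurons, a cerebellar class, were lower without overlap for 3 of 4, with a mean of 2.11 and 2.07 in control and 1.95 and 1.81 in KO. Their part in the TARP values was not tested.

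The brightest MAGUK probes did not separate the groups. Of the 4 genes 2 differed upward and 2 downward, between −0.069 and 0.055, and all 4 had overlapping arrays, against 45.9% of all genes without overlap. Dlg4 encodes the postsynaptic density protein that binds NMDA receptors and TARPs directly, and it read 1.54 and 1.501 in control and 1.53 and 1.37 in KO (difference −0.069, 95% interval −0.367 to 0.230). Dlg2, its relative in Purkinje cells and other neurons, read 2.62 and 2.51 in control and 2.68 and 2.31 in KO. Dlg3, which is prominent in young synapses, read 4.14 and 4.20 in control and 4.27 and 4.12 in KO. Dlg1, which accompanies AMPA receptors on their way to the surface, read 0.69 in both controls and 0.85 and 0.65 in KO. A dimmer Dlg1 probe, listed for another transcript, was higher in KO by 0.32 (SE 0.10; limma adjusted p 0.327), with the groups apart, so the 2 Dlg1 probes gave different sizes.

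Among the Homer and Shank scaffolds, Homer2 was higher in KO. Homer proteins link group I metabotropic receptors to calcium stores and to Shank. Homer2 read −1.02 and −1.18 in the controls and −0.84 and −0.34 in KO. The groups did not overlap, but the KO arrays were 0.501 apart, the widest gap between replicates of any member. The difference was 0.51 (SE 0.202; 95% interval −0.036 to 1.051; limma adjusted p 0.377), 142% of control; without KO replicate 2 it was 0.26 and without KO replicate 1 it was 0.76. Homer1 was read by 3 probes listed for 3 transcripts, which differed by −0.14, −0.044 and 0.16, each with overlapping groups.

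The Shank scaffolds sit deepest in the postsynaptic density and bind Homer. Shank1 read −0.54 and −0.69 in control and −0.58 and −0.83 in KO. Shank2, present at Purkinje cell synapses, read −0.014 and 0.143 in control and −0.005 and −0.071 in KO. Shank3 read 3.56 and 3.49 in control and 3.53 and 3.33 in KO. On the brightest probe all 3 had overlapping groups and differences of −0.103 to −0.090. A dimmer Shank1 probe was lower in KO by −0.12 (SE 0.11), with the groups apart. Of the 20 members with over 1 kept probe, 10 had probes of opposite sign: Gria3, Gria4, Grik5, Grin1, Grin2c, Grm5, Dlg2, Dlg4, Homer1 and Shank3. In these 10 the brightest probe differed by −0.137 to 0.028. In Gria2, Grik1, Grik2 and Grid2ip every probe had its groups apart on the same side. How often this occurs over all genes with over 1 kept probe was not counted, and 49.3% of all kept probes had groups apart. Probes of a gene read the same samples, so they are not separate replicates.

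A list of 50 partners of these receptors was read beside them: further receptor subunits, auxiliary proteins, adhesion proteins, kinases and glutamate transporters. Of the 47 with a kept probe, 0 passed the adjusted threshold. At an unadjusted p under 0.05, 3 were lower in KO, against 5.65% of all genes, and 0 were higher, against 3.16%. These 3 were Sipa1l1, a binding partner of Dlg4, at 2.75 and 2.69 in control and 2.37 and 2.42 in KO; Cnih2, an AMPA receptor auxiliary subunit, at 3.99 and 3.95 in control and 3.70 and 3.57 in KO; and Arc, which promotes AMPA receptor uptake after activity, at 1.22 and 1.29 in control and 0.97 and 0.62 in KO. Their differences were −0.33, −0.33 and −0.46. The median difference of the partners was −0.075, beside −0.064 for all genes, and 20 of the 47 had groups apart, 42.6% against 45.9%. Purkinje and granule cell markers gave no common shift. Of 6 Purkinje markers 3 were lower and 1 higher without overlap, and of 6 granule cell markers 1 was lower. Among all genes 32.1% were lower and 13.8% higher without overlap.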

How the data were processed

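Total RNA, 150 ng per sample, was labelled with Cy3 and hybridised to 1-colour Agilent arrays, per the labels' protocols. The authors deposited scanner files with 1 processed intensity per spot, linear, from which Agilent Feature Extraction had removed background and spatial trend. Its version is 12.1.1.1 per the file headers and 10.7.1.1 per the submitters' processing notes. The deposited series table holds log2 values with no stated scale; its differences between arrays matched the scanner values to within 0.01 after a constant, and its centring is unknown (column medians 0.0071, −0.19, −0.16 and −0.22). It served as an alternative. Other deposited columns are flags, per the file headers.

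From the scanner files, log2 signals were scaled to the 75th percentile of the array and averaged over the spots of a probe; controls and outlier-flagged spots were omitted. Of 35886 probes with a RefSeq accession, 32994 (91.9%) were named through a table of GRCm38.p6; 37516 probes were kept. KO was compared with control in limma 3.58.1 (R 4.3.3), with no covariates and 4.35 degrees of freedom, 2.35 of them from the prior; the code was tested on simulated data. A gene was read by its kept probe with the highest mean. Genes detailed are members with groups apart and an unadjusted p under 0.05, the 3 largest differences, the smallest p in each class, probes of opposite sign, and the 3 partners per direction with the smallest p, of which those on the higher side are not reported here; other members are given by class. Members, lists and tests were chosen with earlier results of these data known. Patch spots had a local background above 1.5 times the median of their array, or lay within 2 rows or columns of such a spot. All arrays share 1 slide, with controls at the first 2 positions and KO at the last 2, so position and group cannot be told apart.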

Additional observations from a re-analysis of the deposited data

How the results depend on the processing

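The 16 alternatives gave 608 values for the members, of which 558 kept their direction and 0 passed the adjusted threshold; 17 members kept it throughout, among them Grik1, Grik2, Grik4, Gria2, Grm3, Homer2 and the 6 TARPs. Not every alternative could change a sign. The filters, the variance settings and the replicate block left each difference as it was. Leaving an array out cannot reverse a member whose groups do not overlap, which holds for all members just named. The members that changed sign had a main difference between −0.137 and 0.055. With spike-in scaling Dlg2 was 0.020, Dlg4 0.018, Gria1 0.020, Grid1 0.083, Grin2b 0.033, Grin2c 0.059, Grin2d 0.022, Grin3a 0.040, Grm4 0.037, Grm5 0.067, Grm7 0.011 and Grm8 0.034. With a gene's kept probes averaged Dlg2 was 0.0085, Grik5 −0.069, Grin1 0.038, Grin2c 0.0029 and Grm5 0.0098. With normexp background correction Dlg3 was −0.018, Grik5 −0.070 and Grm8 0.0026. Quantile normalization gave 0.019 for Grid1 and 0.032 for Grin2c, the authors' log2 values 0.00062 for Grid1, and the median of bright probes −0.0022 for Grik3. With an array left out the ranges that crossed 0 were −0.045 to 0.16 for Dlg1, −0.25 to 0.12 for Dlg2, −0.049 to 0.11 for Dlg3, −0.15 to 0.0096 for Dlg4, −0.052 to 0.11 for Gria3, −0.11 to 0.099 for Grid1, −0.075 to 0.080 for Grik3, −0.079 to 0.12 for Grik5, −0.20 to 0.095 for Grin2b, −0.15 to 0.093 for Grin2c, −0.16 to 0.069 for Grin3a, −0.18 to 0.077 for Grm4, −0.059 to 0.021 for Grm5, −0.18 to 0.075 for Grm8, −0.30 to 0.023 for Homer1, −0.22 to 0.038 for Shank1 and −0.20 to 0.0096 for Shank3. The cause was not tested.

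The count of members at an unadjusted p under 0.05, 4, became 7 with an intensity trend and robust variances. Shares of all genes at the alternative settings are not given here, so the counts in this section cannot be set against a background. With an array left out, a single array is taken to be as variable as the other group. Members with groups apart, 17, ran from 24 to 32 with an array left out, since 3 arrays overlap less often by construction. The median over members, −0.068, turned to 0.019 with spike-in scaling and ran from −0.138 to −0.027 with an array left out. Derl2 passed the adjusted threshold (−1.41, adjusted p 0.0166) with an intensity trend and robust variances; its adjusted p lay between 0.0166 and 0.554 in the alternatives. Over all probes the count past the adjusted threshold, 0, was 1 with quantile normalization, the median of bright probes, spike-in scaling or patch spots left out, 2 with normexp, 4 with an intensity trend and robust variances, and 0 to 98 with an array left out, 98 without control replicate 2.

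Arrays with the same replicate number share only a number: over 37516 probes, the deviations of control replicate 1 and KO replicate 1 from their group means had a correlation of 0.12. With the replicate block 4 members were at an unadjusted p under 0.05, 17 had groups apart, 0 probes passed the adjusted threshold, the member median was −0.068 and Derl2 differed by −1.41.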
